A study of Bos indicus x Bos taurus with 78 samples.

Results

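miR-208b is a muscle microRNA that lies in an intron of MYH7, the gene for slow myosin heavy chain, so its level is read as a mark of slow fibres. Loin muscle biopsies of normal steers were ranked by this miRNA, and the steers at both ends of the ranking were compared across the other miRNAs. The groups were selected on a measured value, the count of miR-208b divided by all miRNA counts other than those of miR-1, the muscle miRNA that takes most of each library. Of the 53 normal steers, the 17 with the highest share formed the high-miR-208b group and the 17 with the lowest share the low-miR-208b group, which is 34 of 78 steers in all. The other 19 normal steers, called the middle steers, entered neither group.

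The series profiled small RNA from Longissimus lumborum, the loin muscle, of male Bos indicus x Bos taurus cattle, 1 biopsy per steer. The labels call 53 steers normal and give the other 25 a degree of dark cutting, a fault in which beef keeps a dark colour after slaughter. Neither group of normal steers carried a treatment, and the labels give no age, diet or fibre type. The 25 dark-cutting steers took no part in the ranking and served as separate animals for the same relation.

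MicroRNAs are short RNAs that lower the stability and translation of messenger RNAs that pair with them. Several are made almost only in striated muscle and are called myomiRs. Some of these sit inside myosin genes: miR-208a in MYH6, miR-208b in MYH7 and miR-499 in MYH7B. In mice, miR-208b and miR-499 act together to keep slow fibres and to repress fast-fibre genes. A biopsy also holds blood, vessels and connective tissue, whose own miRNAs are counted along with those of the fibres. Mature sequences were not used here, so seeds and base composition were not examined.

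The miR-208b share was 0.0590% at its lowest, 0.0728% at the median and 0.116% at its highest in the high-miR-208b steers, against 0.0126%, 0.0255% and 0.0344% in the low-miR-208b steers. The groups cannot overlap in this share, since it chose them, and no test was made of it. The median share was 2.85-fold higher in the high-miR-208b steers. At the upper limit the last steer inside the high group had 0.0590% and the first outside it 0.0571%. At the lower limit the last steer inside the low group had 0.0344% and the first outside it 0.0349%. The ranking therefore ran on without a gap at either limit. The share rested on 213 to 652 counts of miR-208b per library in the high-miR-208b steers and on 47 to 201 in the low-miR-208b steers. In the dark-cutting steers it ran between 0.0136% and 0.107%, with a median of 0.0393%. Of these 25 steers, 3 lay at or above the lowest share of the high group and 11 at or below the highest share of the low group.

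**Figure D1:**
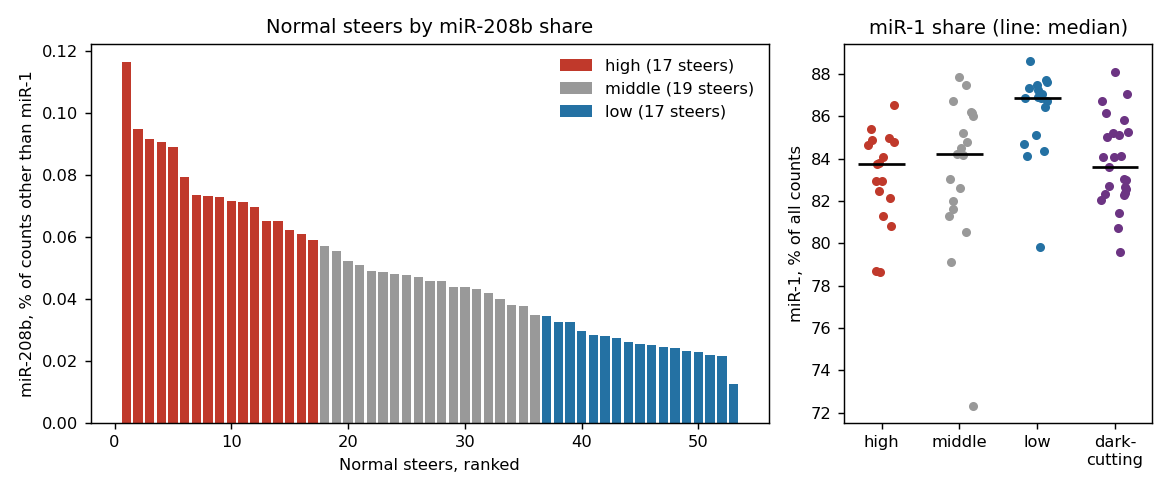
Left, miR-208b as a percentage of counts other than miR-1 in each normal steer, ranked, with the 17 high, 19 middle and 17 low steers in colour. Right, miR-1 as a percentage of all counts in each steer, with the median as a line. The share falls steadily with no gap at 0.0590% or 0.0344%, and miR-1 takes a median of 83.8% of counts in high-miR-208b steers and 86.9% in low-miR-208b steers.

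Library depth was alike at the median, with 3211620 counts in the high-miR-208b steers and 3116769 in the low-miR-208b steers. The share of miR-1 was not alike. It averaged 83.1% ± 2.24 in the high-miR-208b steers and 86.2% ± 2.07 in the low-miR-208b steers (SD, n = 17 each). The counts left for all other miRNAs had a median of 546402 in the high-miR-208b steers and 416451 in the low-miR-208b steers, and the number of miRNAs detected had medians of 406 and 385 in these groups. Title numbers below 600 belonged to 4 of 17 high-miR-208b and 8 of 17 low-miR-208b steers, and the labels do not say what the numbers stand for. Within the high-miR-208b group, normal replicate 19 stood apart in blood miRNAs, so results that rest on it are given with and without it. The part of the miR-1 share and of the title numbers in the results was tested only as the alternative fits given below.

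The question of the main comparison was which other miRNAs go along with miR-208b among normal steers. Counts were tested with edgeR's quasi-likelihood F test after TMM scaling, which sets each library against its other miRNAs, and p-values were adjusted by Benjamini-Hochberg over the 198 miRNAs tested. miR-208b and miR-1 themselves, which the ranking used, were not tested. Of the 198 miRNAs, 88 differed between the groups at an adjusted p under 0.05, which is 44.4%. Higher in the high-miR-208b steers were 54 miRNAs, 27.3% of those tested, and lower were 34, 17.2% of those tested. The median log2 fold change over all 198 was -0.0054, high minus low. For 81 of the 88 called miRNAs the mean of the middle steers, which this fit did not use, lay between the means of the 2 groups. The ranking itself placed these steers between the groups, and the 88 were chosen for a difference between the groups. The count is therefore a description and no separate check.

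The split of calls depended on the scaling. With library totals alone, which miR-1 dominates, the median over all miRNAs was 0.15 and 66 miRNAs were higher and 12 lower. With totals minus miR-1 it was -0.15, and 34 were higher and 65 lower. None of the 88 called miRNAs changed sign under these or under DESeq2's size factors. Among steers with title numbers below 600 there were 75 calls, and among those at 600 or above 53, with 67 and 52 of them among the 88. With the share of reads other than miR-1 as a term, 67 miRNAs were called, 56 of them among the 88.

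**Figure D2:**
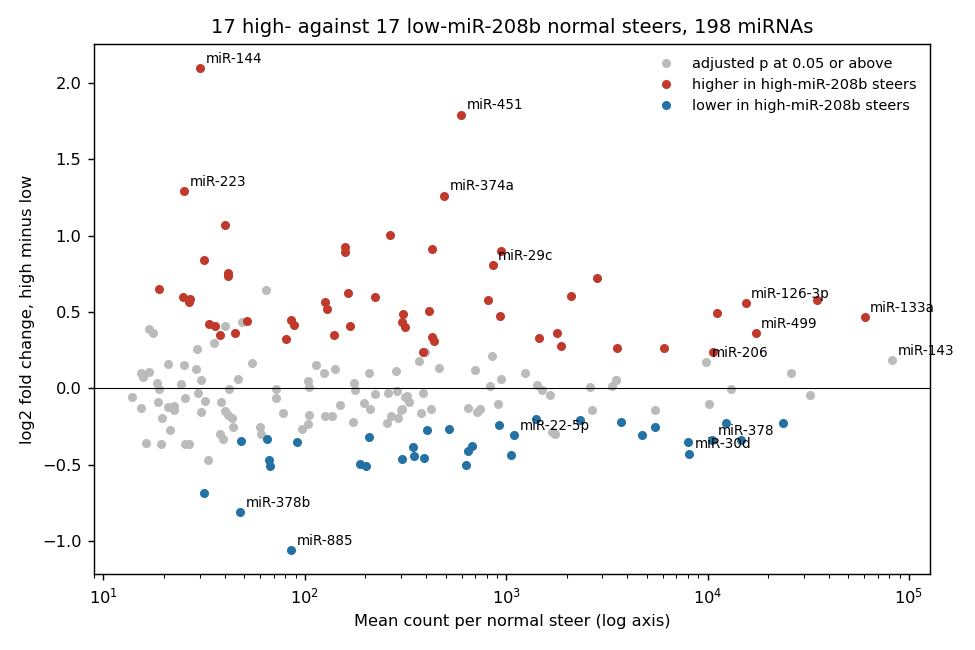
Log2 fold change of each of 198 miRNAs, high- minus low-miR-208b normal steers, against its mean count per normal steer on a log axis. Red points are the 54 higher and blue points the 34 lower miRNAs at an adjusted p under 0.05. Higher calls reach 2.10 for miR-144, which is 1.50 without normal replicate 19, and lower calls -1.06 for miR-885. Calls occur at low and at high counts.

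miR-499, the other slow-fibre miRNA of a myosin intron, was higher with miR-208b, by a small amount. Its log2 CPM (TMM-scaled, prior count 2), the log2 of counts relative to the size of the library, was 11.64 at the lowest, 12.70 at the median and 13.12 at the highest in the high-miR-208b steers, against 11.17, 12.40 and 12.87 in the low-miR-208b steers. The groups overlapped over most of their range, and 14 of 17 high-miR-208b steers lay above the low group's median. The log2 fold change was 0.36 ± 0.13 (SE), a 1.29-fold difference, with an edgeR adjusted p of 0.0212 and a 95% interval of 0.10 to 0.63. It ranked 80 of 198 by p-value, so most miRNAs called in this comparison had a smaller p than the slow-fibre partner of miR-208b. Its adjusted p ranged up to 0.180 over the 16 alternative fits, of which 14 called it. With totals minus miR-1, the denominator of the ranking, miR-499 had 0.19 and was not called. miR-208a had 0 to 6 counts per library in the high-miR-208b and 0 to 5 in the low-miR-208b steers and was below the count filter.

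Of the other 4 myomiRs tested, 1 was higher and none was lower, beside 27.3% higher and 17.2% lower of all miRNAs tested. Without normal replicate 19, and also with totals minus miR-1, 1 was higher and 1 lower. miR-133a, which is made from the same transcripts as miR-1, had log2 CPM of 13.67, 14.53 and 14.91 (lowest, median and highest) in the high-miR-208b steers, against 13.62, 14.04 and 14.59 in the low-miR-208b steers. The lowest steers of both groups were nearly level, and 15 of 17 high-miR-208b steers lay above the low group's median. The log2 fold change of miR-133a was 0.46 ± 0.10 (edgeR adjusted p = 0.000135). miR-206, a miRNA of muscle regeneration that is enriched in slow muscle of rodents, had a log2 fold change of 0.17 ± 0.09 and did not pass the test (adjusted p = 0.130). miR-133b, made next to miR-206, had 0.02 ± 0.11, with a 95% interval of -0.20 to 0.23 and a sign that turned with the scaling. miR-486, made in an intron of ANK1 and shared by muscle and red blood cells, had -0.29 ± 0.13 (adjusted p = 0.0632), and passed in 21 of 34 fits without 1 steer. The 4 myomiRs had a median of 0.09, beside -0.0054 for all miRNAs.

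The smallest p-value belonged to miR-374a, which in human lies in the X-linked FTX transcript. Its log2 CPM was 7.02, 7.75 and 8.56 (lowest, median and highest) in the high-miR-208b steers, against 5.90, 6.55 and 7.24 in the low-miR-208b steers. All 17 high-miR-208b steers exceeded the low group's median, and the groups overlapped between 7.02 and 7.24. It was higher by 1.26 ± 0.12 on the log2 scale, or 2.40-fold, with an edgeR adjusted p of 1.39e-11. The middle steers, with a median of 7.24, lay between the groups.

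miR-29c had the next smallest p-value and was the only tested miRNA whose groups did not overlap, 0.505% of the 198. The miR-29 family represses collagens and other matrix genes. Log2 CPM of miR-29c was 8.11, 8.33 and 8.97 in the high-miR-208b steers, against 7.22, 7.60 and 7.93 in the low-miR-208b steers. Every high-miR-208b steer was thus above every low-miR-208b steer, while the middle steers ran between 7.25 and 8.92 and reached into both groups. Its log2 fold change was 0.81 ± 0.09 (edgeR adjusted p = 1.15e-09). Its relatives miR-29b, at 0.52 ± 0.13, and miR-29a, at 0.27 ± 0.07, were also higher, with adjusted p of 0.000767 and 0.000981.

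Several miRNAs of the miR-15/16/195 family, which restrains the cell cycle, had calls in the higher direction, and they were grouped after their values were seen. miR-16a had log2 CPM of 9.33, 9.69 and 10.12 in the high-miR-208b steers, against 8.72, 9.02 and 9.57 in the low-miR-208b steers, and a log2 fold change of 0.61 ± 0.08 (edgeR adjusted p = 5.54e-08). miR-195 was higher by 0.58 ± 0.09, miR-15a by 0.51 ± 0.10 and miR-16b by 0.48 ± 0.07 on the log2 scale. For each of these 4 miRNAs all 17 high-miR-208b steers lay above the low group's median, although the ranges overlapped. miR-15b, a further member of the family on the list of red blood cell miRNAs, had 0.15 ± 0.12 and did not pass (adjusted p = 0.285).

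The other miRNAs with the smallest p-values among the higher ones were miR-2285bf (0.90 ± 0.10), miR-6119-5p (0.92 ± 0.12), miR-32 (0.90 ± 0.13), miR-1434-5p (1.07 ± 0.17), miR-126-3p (0.56 ± 0.08) and miR-27a-3p (0.72 ± 0.12). The miR-2284 and miR-2285 names belong to a family found in ruminants, and its members did not go one way. miR-2285bf had log2 CPM of 5.57, 6.11 and 6.44 in the high-miR-208b steers, against 4.52, 5.24 and 5.60 in the low-miR-208b steers, so the groups met only at their edges. miR-2285f was also higher, by 0.75 ± 0.16, while miR-2284y was lower, at -0.69 ± 0.14 (edgeR adjusted p = 8.48e-05). miR-148b was higher by 0.49 ± 0.09. miR-335, which sits in an intron of the imprinted gene MEST, was higher by 0.60 ± 0.14.

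**Figure D3:**
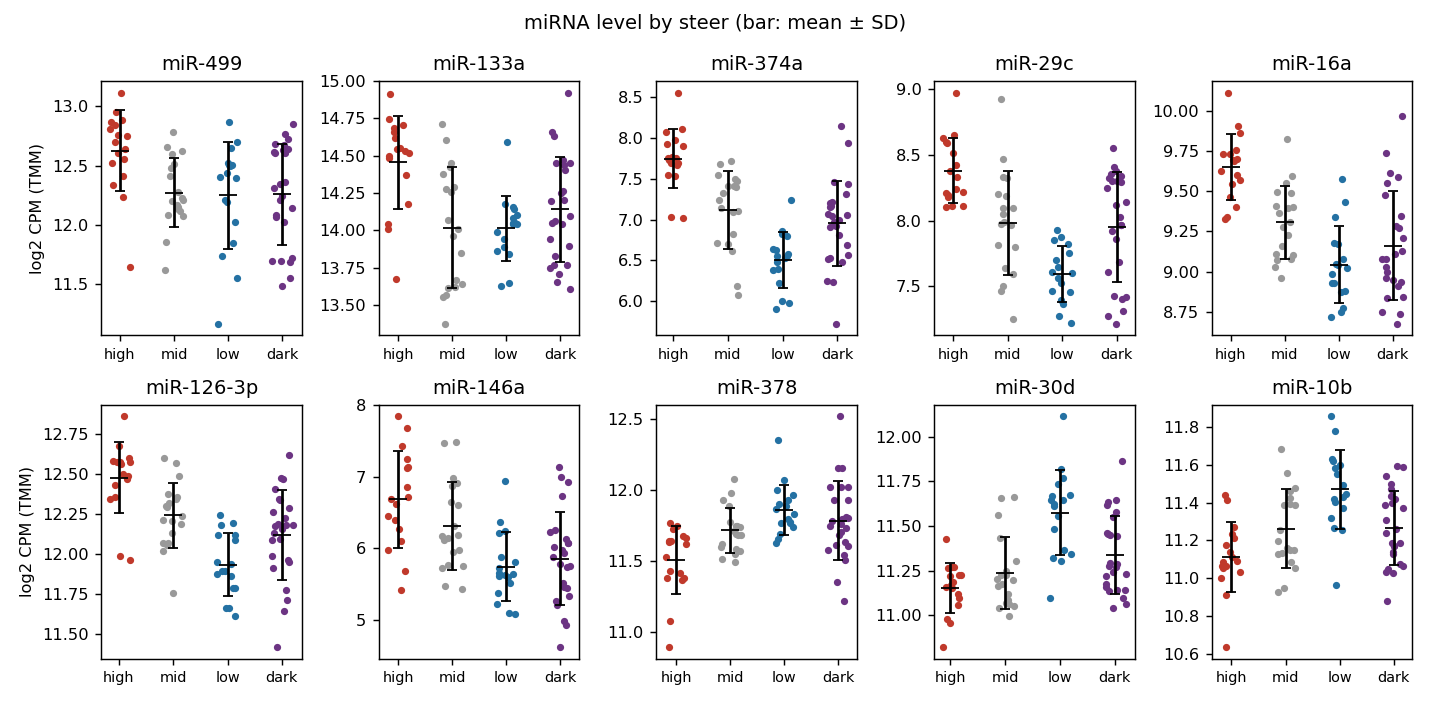
Log2 CPM (TMM-scaled) of 10 miRNAs in each of the 17 high, 19 middle and 17 low normal steers and the 25 dark-cutting steers, with mean ± SD. miR-374a and miR-29c separate high- and low-miR-208b steers fully or nearly so, with medians of 7.75 and 8.33 in high-miR-208b steers against 6.55 and 7.60 in low-miR-208b steers, whereas miR-499 and miR-133a overlap widely.

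Among the lower miRNAs, miR-30d had the smallest p. Its log2 CPM was 10.82, 11.17 and 11.43 in the high-miR-208b steers, against 11.10, 11.62 and 12.11 in the low-miR-208b steers. All 17 high-miR-208b steers lay below the low group's median, with an overlap between 11.10 and 11.43. The log2 fold change of miR-30d was -0.43 ± 0.07, or 0.743 times the low group's level (edgeR adjusted p = 1.31e-05). miR-660, from an X-linked cluster in an intron of CLCN5, had -0.50 ± 0.09. miR-93, from an intron of the replication gene MCM7, had -0.46 ± 0.08. miR-320a had -0.44 ± 0.10 and let-7a-3p -0.51 ± 0.11. The lowest value belonged to miR-885, at -1.06 ± 0.22, which had medians of 51 counts in the high-miR-208b and 98 in the low-miR-208b steers.

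Both miR-10 genes lie within HOX clusters, which set position along the body. miR-10b had -0.35 ± 0.07 and miR-10a -0.38 ± 0.08, and for each all 17 high-miR-208b steers lay below the low group's median. Of the 4 HOX-cluster miRNAs tested, these 2 were lower and 1 was higher, beside 17.2% lower and 27.3% higher of all miRNAs tested. With library totals alone, and likewise with the share of reads other than miR-1 as a term, 2 were higher and none was lower. miR-193b (-0.50 ± 0.11) and miR-365-3p (-0.41 ± 0.08), neighbours that support brown fat differentiation in mice, were both lower, and they were the calls among the 3 tested members of their list. miR-99a-5p and miR-125b, which share clusters with let-7 genes, were lower by smaller amounts, at -0.30 ± 0.07 and -0.22 ± 0.06.

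None of the tested miRNAs linked to oxidative metabolism was called higher with the slow-fibre mark. miR-378 lies in an intron of PPARGC1B, a coactivator of mitochondrial genes, and miR-103 and miR-107 in introns of pantothenate kinase genes. Of 6 members tested, none was higher and 3 were lower, beside 27.3% higher and 17.2% lower of all miRNAs tested. The 3 lower ones were all miR-378 forms, and the list median was -0.29 beside -0.0054 for all miRNAs. miR-378 had log2 CPM of 10.89, 11.62 and 11.77 in the high-miR-208b steers, against 11.63, 11.83 and 12.35 in the low-miR-208b steers. The high group's median was just below the lowest low-miR-208b steer, and the ranges overlapped between 11.63 and 11.77. The log2 fold change of miR-378 was -0.34 ± 0.08 (edgeR adjusted p = 0.000688). miR-378c had -0.38 ± 0.09 and miR-378b -0.81 ± 0.16. Reads of near-identical forms can be counted in more than 1 entry, so these 3 calls may share reads. miR-103 had -0.14 ± 0.08 and did not pass (adjusted p = 0.160), with a sign that turned under scaling by library totals.

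The miR-23/27/24 clusters, of which miR-27 is known to act on myogenic regulators in mice, had 4 higher and no lower call among 6 tested. Their median was 0.34, and 4 were higher and 1 lower with the share of reads other than miR-1 as a term. Beside each list in this paragraph stand the shares of all miRNAs tested, 27.3% higher and 17.2% lower. miR-27a-3p had log2 CPM of 9.38, 9.99 and 11.02 in the high-miR-208b steers, against 8.65, 9.24 and 10.09 in the low-miR-208b steers. Its groups overlapped in the middle of the range, with all 17 high-miR-208b steers above the low group's median. miR-24-3p was higher by 0.50 ± 0.09 and miR-27b by 0.24 ± 0.06. Of the 7 tested miRNAs on the list of miR-22, miR-26 and miR-181, 4 were higher and 1 lower, with a median of 0.27, against 2 higher and 3 lower, with a median of 0.12, when totals minus miR-1 set the scale. miR-22-3p, abundant in muscle and heart, was higher by 0.58 ± 0.11, miR-26b by 0.27 ± 0.07 and miR-181a, which promotes myoblast differentiation in mice, by 0.28 ± 0.09, called in 11 of 16 alternative fits. The miR-30 family had 2 lower calls of 6, miR-30d and miR-30a-5p (-0.34 ± 0.08), and a median of -0.05. The let-7 family, which is expressed in most differentiated cells, had 1 higher and 3 lower calls of 10, let-7f (-0.23 ± 0.07) and let-7g (-0.22 ± 0.07) among the lower ones, and a median of -0.02. Its calls were 1 higher and 1 lower with library totals alone, 0 higher and 5 lower with totals minus miR-1, and 1 higher and 0 lower with the share of reads other than miR-1 as a term. The calls of let-7f and let-7g were each made in 13 of 16 alternative fits. For the miR-30 family, library totals alone gave 1 higher and 1 lower call, totals minus miR-1 0 higher and 3 lower, and the share term 1 higher and 0 lower.

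Several blood miRNAs were higher in the high-miR-208b steers. In bulk tissue, fewer cells of a type and less RNA per cell cannot be told apart. On the list of red blood cell miRNAs 4 of 8 were higher and 1 was lower, with a median of 0.31, beside 27.3% higher and 17.2% lower of all miRNAs tested. Without normal replicate 19 there were 4 higher and 2 lower (median 0.26), and with totals minus miR-1 4 higher and 3 lower. miR-144 and miR-451 are made from 1 erythroid transcript. miR-144 had log2 CPM of 2.56, 3.34 and 6.77 in the high-miR-208b steers, against 0.97, 2.18 and 2.85 in the low-miR-208b steers, so the groups overlapped little. For miR-451 the values were 6.16, 7.34 and 11.42 in the high-miR-208b steers, against 5.77, 6.64 and 7.09 in the low-miR-208b steers. The highest value of both came from normal replicate 19. The log2 fold changes were 2.10 ± 0.37 for miR-144 and 1.79 ± 0.41 for miR-451 with this steer. Without it they were 1.50 ± 0.21 (edgeR adjusted p = 4.16e-07) and 0.88 ± 0.19 (edgeR adjusted p = 0.000309). Both kept their call without this steer, at a smaller size. Among steers with title numbers below 600, which do not include replicate 19, miR-451 had 0.31 and was not called (edgeR adjusted p = 0.239), and miR-144 had 1.20 and was called. The lower member was miR-92a, at -0.24 ± 0.07.

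White blood cell miRNAs had 3 higher and no lower call of 7 tested, beside 27.3% higher of all miRNAs, with a median of 0.41. miR-223, a miRNA of myeloid cells, had 2.60, 3.21 and 5.07 log2 CPM in the high-miR-208b steers, against 1.13, 2.24 and 3.60 in the low-miR-208b steers. The upper part of the low group overlapped with the high group. Its log2 fold change was 1.29 ± 0.24, and 1.09 ± 0.21 without normal replicate 19. miR-142-5p, made across blood cell lineages, had 0.93 ± 0.17, and 0.80 ± 0.14 without that steer. miR-146a, which is induced in inflammation, had 1.01 ± 0.20, and 1.00 ± 0.20 without it. The summed level of the 8 listed white blood cell miRNAs ran between 155 and 454 CPM in the high-miR-208b steers, with a median of 250.4, and between 132 and 272 CPM, with a median of 165, in the low-miR-208b steers. The sum for red blood cells had medians of 2208 and 1998 CPM in these groups. The part of blood in the other results was not tested.

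Of the 4 endothelial miRNAs tested 3 were higher, beside 27.3% of all miRNAs, and the fourth was not called. Their median was 0.38. miR-126-3p and miR-126-5p come from an intron of EGFL7, a gene of vessel lining. miR-126-3p had log2 CPM of 11.96, 12.56 and 12.86 in the high-miR-208b steers, against 11.61, 11.89 and 12.24 in the low-miR-208b steers. All 17 high-miR-208b steers were above the low group's median, and the ranges overlapped between 11.96 and 12.24. The log2 fold change was 0.56 ± 0.08 (edgeR adjusted p = 2.39e-07). miR-126-5p had 0.36 ± 0.09 and miR-222 0.41 ± 0.16. The call of miR-222 held in 20 of 34 fits that each left out 1 steer and in 5 of 16 alternative fits, with an adjusted p of up to 0.638. The summed endothelial level had a median of 6647 CPM in the high-miR-208b and 4400.4 CPM in the low-miR-208b steers. With totals minus miR-1 as the scaling 1 of the 4 was called, and with the share of reads other than miR-1 as a term 2 were.

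Neither miR-143 nor miR-145, which mark smooth muscle and pericytes, was called, and miR-143 had 0.18 ± 0.18 (edgeR adjusted p = 0.432). The 9 tested fibroblast miRNAs had a median of -0.13. They had 3 higher and 1 lower call, which is near the 27.3% higher and 17.2% lower of all miRNAs tested. The 3 higher ones were the miR-29 members given above, and the lower one was miR-199b, at -0.46 ± 0.12. With the share of reads other than miR-1 as a term, the same list had 3 higher and 5 lower calls and a median of -0.67. miR-199a-3p, from the same family as miR-199b, had -0.30 ± 0.16 and did not pass (adjusted p = 0.140). Skin epithelium was close to absent, with a summed level of at most 1.65 CPM in the high-miR-208b and 1.32 CPM in the low-miR-208b steers. On the liver list miR-122 was near 0 as well, averaging 0.412 counts in the high-miR-208b and 0.235 in the low-miR-208b steers. On the nerve list miR-124a was near 0, averaging 0.176 and 0.118 counts in these groups. Neither list was near 0 as a whole. The count filter was passed by miR-192 and miR-194 of the liver list and by miR-9-5p, miR-7 and miR-128 of the nerve list. miR-194, on the liver list, was higher by 0.40 ± 0.11, and miR-128, on the nerve list and also made in muscle, was lower, at -0.44 ± 0.10.

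The remaining lists are to be set beside 27.3% higher and 17.2% lower of all miRNAs tested. The imprinted DLK1-DIO3 cluster is known in sheep for the callipyge muscle trait. It had 3 higher and 2 lower calls of 17 tested and a median of -0.09. This balance turned with the scaling: there were 4 higher and 0 lower calls (median 0.08) with library totals alone and 1 higher and 6 lower (median -0.23) with totals minus miR-1. miR-379 was among the higher ones, at 0.31 ± 0.12 (edgeR adjusted p = 0.0326), a call that held in 19 of 34 fits without 1 steer and in 4 of 16 alternative fits, and miR-411a, at 0.21 ± 0.10, did not pass (adjusted p = 0.0862). The miR-17-92 cluster and its relatives, which act in dividing cells, had no higher and 3 lower calls of 9, with a median of -0.24, but 1 higher and 1 lower with library totals alone and 0 higher and 6 lower with totals minus miR-1. The miR-424 cluster had 1 higher call of 3, miR-424-5p, at 0.41 ± 0.14, called in 11 of 16 alternative fits. The list for hypoxia, miR-210 alone, had no member above the count filter.

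**Figure D4:**
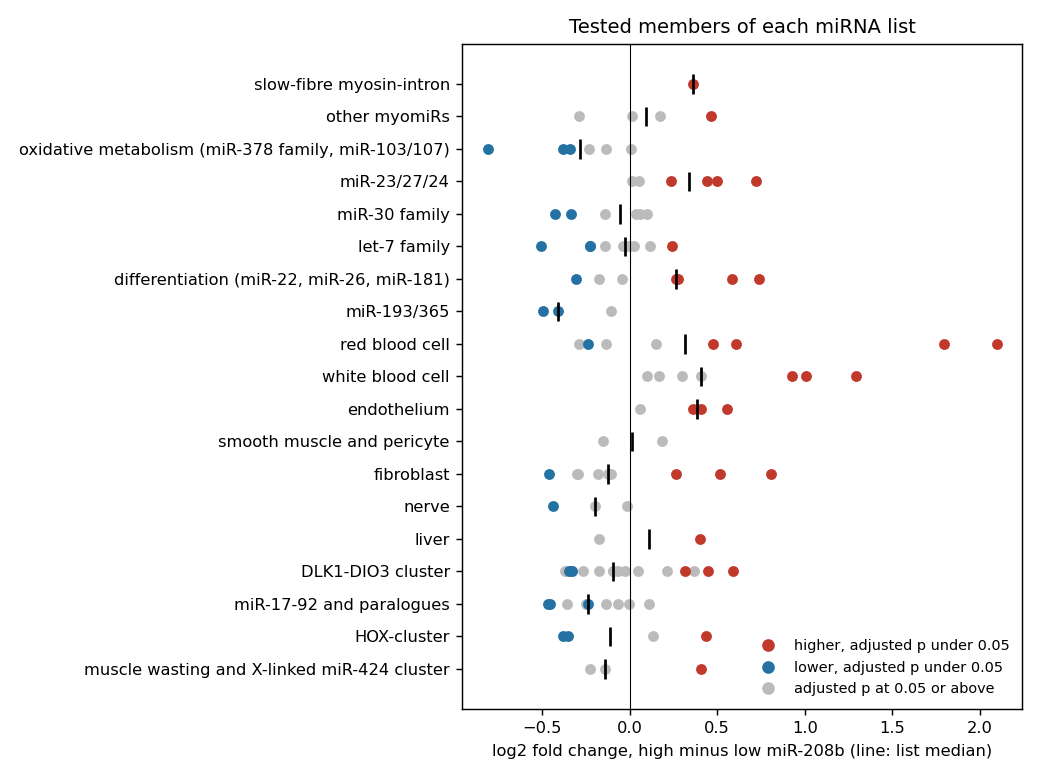
Log2 fold change, high- minus low-miR-208b normal steers, of each tested miRNA of the lists, with the list median as a line. Red and blue points passed the test in the higher and lower direction. White blood cell and endothelial lists have medians of 0.41 and 0.38 with no lower call, and the oxidative metabolism list has a median of -0.29 with no higher call. Of all 198 miRNAs tested, 27.3% were higher and 17.2% lower.

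The arms of a hairpin, its 5p and 3p miRNAs, are counted in the same library, so their ratio does not depend on scaling. Arms were paired by the shared part of their names, called a hairpin here, and in 11 hairpins both were tested. Whether such a name stands for 1 gene or for several was not examined. This comparison was added after their values were seen. The log2 ratio of the 3p to the 5p arm of miR-22 averaged 5.37 ± 0.24 in the high-miR-208b steers and 4.46 ± 0.48 in the low-miR-208b steers (SD, n = 17 each). The difference was 0.91, with all 17 high-miR-208b steers above the low group's median (two-sided permutation test, p = 1e-05, the smallest that 100000 resamples can give, adjusted p = 5.5e-05 over 11 hairpins). The arms moved in opposite directions, miR-22-3p higher as given above and miR-22-5p lower at -0.31 ± 0.09. miR-151 did the same. Its log2 ratio averaged -2.13 ± 0.24 in the high-miR-208b steers and -2.67 ± 0.30 in the low-miR-208b steers (permutation adjusted p = 5.5e-05). miR-151-3p was higher at 0.33 ± 0.09 and miR-151-5p lower at -0.21 ± 0.07. Unlike the ratio, the change of a single arm depends on the scaling. Of 16 alternative fits, 16 called miR-22-3p, 13 miR-22-5p, 14 miR-151-3p and 12 miR-151-5p, and none of these values changed sign.

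The ratio of 3p to 5p arm was also higher for miR-362 (0.60) and miR-126 (0.20), and lower for miR-369 (-0.73), miR-6119 (-0.72) and let-7a (-0.55), all as log2 differences past the permutation test over 11 hairpins. Adjusted p was 0.0225 for miR-126 and at most 0.000752 for the others. Within the title-number ranges, which hold fewer steers, the permutation test did not call miR-126 in either range (0.07 below 600 and 0.21 at 600 or above), let-7a, miR-362 and miR-6119 at 600 or above, or miR-369 below 600, and all kept their sign. The ratios of miR-199a, miR-29d, miR-331 and miR-423 did not pass. For miR-6119 none of the 17 high-miR-208b steers lay above the low group's median, the 5p arm having been higher at 0.92 with the 3p arm not called.

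The same relation was then measured in the 25 dark-cutting steers, which the ranking did not use, as a slope of each miRNA on the log2 share of miR-208b. A slope is the log2 change per doubling of the share. Of the 198 miRNAs, 55 had a slope at an edgeR adjusted p under 0.05, which is 27.8%. Rising with miR-208b were 29 miRNAs, 14.6% of those tested, and falling were 26, 13.1% of those tested. Of the rising ones 26 were also higher in the high-miR-208b normal steers, which is 89.7% of the 29 and 48.1% of the 54. Of the falling ones 20 were also lower, which is 76.9% of the 26 and 58.8% of the 34. None was called in opposite directions. Of the 88 miRNAs called in normal steers, 85 had a dark-cutting slope of the same sign as their log2 fold change, high minus low. The same held for 153 of all 198.

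miR-374a again had the smallest p-value. Its log2 CPM averaged 6.95 ± 0.53 (SD, n = 25) in the dark-cutting steers, between 5.73 and 8.15, and it had a slope of 0.67 ± 0.09 (SE, edgeR adjusted p = 6.56e-07), beside 0.72 ± 0.07 in the 53 normal steers. miR-27a-3p had a slope of 0.44 ± 0.07, miR-6119-5p 0.53 ± 0.09, miR-16a 0.37 ± 0.07, miR-15a 0.37 ± 0.08, miR-335 0.58 ± 0.11, miR-146a 0.68 ± 0.14, miR-2285f 0.62 ± 0.14 and miR-29c 0.40 ± 0.09. All of these were also higher in the high-miR-208b normal steers. Among falling miRNAs were miR-320a (-0.45 ± 0.09), miR-10a (-0.36 ± 0.08), miR-378 (-0.29 ± 0.07), miR-125b (-0.25 ± 0.06), miR-99a-5p (-0.25 ± 0.06) and miR-30d (-0.23 ± 0.06). These too were called lower in normal steers. miR-486 fell in the dark-cutting steers (-0.37 ± 0.07, edgeR adjusted p = 0.00035), where in normal steers it did not pass.

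Of the slow-fibre and muscle miRNAs, miR-499 and miR-133a rose and miR-486, given above, fell. miR-499 had 0.29 ± 0.11 (edgeR adjusted p = 0.0467), a call that held in 9 of 25 fits that each left out 1 steer. miR-133a had 0.25 ± 0.09 (edgeR adjusted p = 0.0230). miR-206 had 0.07 ± 0.07 and miR-133b 0.17 ± 0.08, and neither passed. On the oxidative metabolism list none rose and 4 of 6 fell, beside 14.6% rising and 13.1% falling of all miRNAs. Its median slope was -0.26 beside 0.01 for all 198, and miR-103 was among those that fell (-0.23 ± 0.07). On the miR-23/27/24 list 3 of 6 rose and none fell, beside the same shares of all miRNAs.

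On the red blood cell list 2 of 8 rose in the dark-cutting steers, miR-16a and miR-16b, and miR-486 fell, beside 14.6% rising and 13.1% falling of all miRNAs. On the white blood cell list 2 of 7 rose, miR-146a among them. None of the 4 endothelial miRNAs was called in the dark-cutting steers, and miR-126-3p had a slope of 0.13 ± 0.08 (edgeR adjusted p = 0.247). miR-144 had 0.45 ± 0.24, miR-451 0.11 ± 0.13, miR-223 0.06 ± 0.16 and miR-142-5p 0.29 ± 0.12, and none of these passed. Both arms of miR-22 were called in opposite directions again, miR-22-3p at 0.33 ± 0.08 and miR-22-5p at -0.21 ± 0.07. Of miR-151, the 5p arm fell (-0.24 ± 0.06) and the 3p arm, at 0.17 ± 0.08, did not pass. In the DLK1-DIO3 cluster 4 of 17 rose and none fell, among them miR-379 (0.43 ± 0.11) and miR-411a (0.32 ± 0.10).

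The difference between the slopes was tested itself, as an interaction over all 78 steers, dark-cutting minus normal. No miRNA passed, 0.00% of the 198, and 16 had an unadjusted p under 0.05 with edgeR. The smallest adjusted p was 0.443, for miR-451. DESeq2 and limma-voom also called 0, with 18 and 17 miRNAs at an unadjusted p under 0.05. A call in normal steers that was missing in dark-cutting steers, such as that of miR-126-3p or miR-144, was therefore not shown to differ between them. Over the 198 miRNAs, which share libraries and are not independent, the slopes of dark-cutting and normal steers had a Pearson correlation of 0.698, given as a description.

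**Figure D5:**
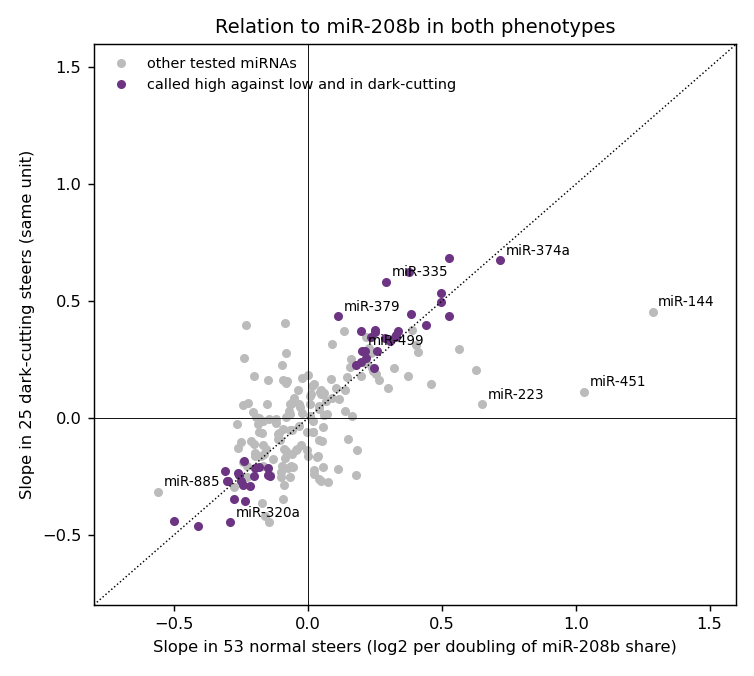
Slope of each of 198 miRNAs on the log2 miR-208b share in the 25 dark-cutting steers (vertical axis) against that in the 53 normal steers (horizontal axis), in log2 units per doubling of the share, with the line of equal slopes dotted. The purple points are the 46 miRNAs called in the same direction in the high-against-low test of normal steers and in the dark-cutting slope. They run from miR-374a, at 0.67 in dark-cutting and 0.72 in normal steers, down to falling miRNAs such as miR-320a. miR-451 lies near 0 on the dark-cutting axis only.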

How the data were processed

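Small RNA libraries were made from total RNA of loin biopsies of 78 steers, per the labels' protocols, and Trimmomatic 0.32, DESeq2 1.34.0 and FastQC appear in the submitters' processing notes. The deposited matrix holds whole-number counts of reads per bovine mature miRNA and steer, not normalized, per the file headers and values. The aligner, the miRNA reference and any collapsing of repeated reads were not stated. All 78 columns were matched to steers by title. Groups came from the phenotype label, and the high- and low-miR-208b groups from the miR-208b share of counts other than miR-1. A further deposited table of the authors' own comparison was not used.

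Of 1030 miRNAs in the matrix, 741 had a count and 200 passed filterByExpr of edgeR (minimum count 10) on all 53 normal steers as 1 group. Leaving out miR-208b and miR-1, 198 were tested. Tests used edgeR 4.0.16 in R 4.3.3 (quasi-likelihood F test, robust dispersion, TMM factors, Benjamini-Hochberg threshold 0.05). DESeq2 1.42.0 and voom of limma 3.58.1 served as alternatives. Each other miRNA enters the denominator of the ranking share in part, and the groups were cut on miR-208b of the same libraries, so a test asks which miRNAs vary along with it. Depth limits the rarer miRNAs: the filter corresponds to about 3.11 CPM.

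The members, lists and tests were chosen with earlier results of these data known. The naming rule takes up to 12 calls with the smallest p in each direction and comparison, all tested slow-fibre and other myomiRs, the 3 most abundant tested members of each other list and the 10 most abundant miRNAs, and not all of these are described. Outside it, miR-15b, miR-22-5p, miR-29b, miR-151-3p, miR-199b, miR-222 and the arm ratios were chosen after their values were seen. Arm ratios used a pseudocount of 0.5 and permutation tests of 100000 resamples. No libraries were near copies (chi-square divided by its degrees of freedom was at least 8.24 in each of 3003 pairs). miR-10174-3p and miR-23b-3p had nearly the same counts (SD of the log2 ratio 0.0026), and relatives such as miR-16a and miR-16b may share reads. The test was checked on simulated counts before use.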

Additional observations from a re-analysis of the deposited data

How the results depend on the processing

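No paired analysis was possible because replicate numbers only count the steers within each phenotype and pair no animals. The 88 calls of high against low became 53 among steers with title numbers at 600 or above and lay between 67 and 99 in the other alternatives, with 85 to 96 when each steer was left out in turn. The 55 slope calls of dark-cutting steers became 22 with library totals alone, lay between 47 and 55 in the other alternatives, and between 42 and 56 without each steer. No alternative called a slope difference. Of 1358 values, under other settings, of the miRNAs and arm ratios described above, 1192 kept direction and side of the threshold, 124 lost and 23 gained a call, and 19 changed sign. A further 57 values, of 21 miRNAs that the naming rule takes, also changed sign and are not described. Losses were most frequent with library totals alone (24). miR-222 kept its call in 20, miR-379 in 19, miR-181a in 28 and miR-424-5p in 29 of 34 fits without 1 steer, and miR-486 gained one in 21. Of slopes, miR-499 kept its call in 9 and miR-103, miR-133a and miR-22-5p in 23 of 25 fits without 1 steer. No called value described above changed sign. Among these miRNAs the sign changes were those of miR-133b, -0.0285 with DESeq2's size factors or test, -0.1205 without miR-1 in the totals, -0.0136 with no filter, -0.0031 with a grouped filter, -0.0507 ranked by share of all counts, -0.0708 for 26 against 26, -0.0233 as a slope, -0.1204 with the share of reads other than miR-1 as a term and -0.21 at title numbers of 600 or above. With that share as a term miR-486 had 0.0859 and miR-143 -0.0399, which was -0.0109 at 600 or above. miR-103 had 0.0306 with library totals. Without miR-1 in the totals miR-15b had -0.0019 and the dark-cutting slope of miR-223 was -0.0061. The arm ratio of miR-29d was -0.1107 and that of miR-331 0.505 below 600, and miR-331 had 0.00099 with a pseudocount of 1. Without 1 steer, miR-133b ran between -0.0500 and 0.0690, and the arm ratios of miR-331 between -0.0695 and 0.0808 and of miR-423 between -0.0473 and 0.0263. The causes were not tested.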
